A study of Gallus gallus with 20 samples.

Results

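The genes described here were 10 collagen chains known from the dermis: the fibril-forming chains COL1A1, COL1A2, COL3A1, COL5A1 and COL5A2, the beaded-filament chains COL6A1, COL6A2 and COL6A3, and the fibril-associated chains COL12A1 and COL14A1. In these data COL14A1 was higher in epithelium than in mesenchyme in each skin. The 10 genes were chosen by name, with earlier results of these data known, so their counts beside shares of all probe sets are descriptions. Each was represented by the probe set, among those annotated to its symbol, with the highest mean over all 20 arrays. All 10 were present among the 13009 genes that the array annotation names, with 38 probe sets in all, and each passed a filter on low levels. The levels are on the log2 scale, so that a difference of 1 is a doubling.

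Chicken genome arrays were hybridized with RNA of White leghorn embryonic skin that had been separated into epithelium and mesenchyme with EDTA. Scale-forming skin of the metatarsal region was taken at embryonic day 9 (mesenchyme E9sm, epithelium E9se, 2 arrays each) and day 11 (E11sm, E11se, 3 arrays each), and feather-forming dorsal skin at day 7 (E7fm, E7fe, 2 arrays each) and day 9 (E9fm, E9fe, 3 arrays each). The embryos were untreated, tissue was pooled, and the titles number the arrays within a group as biological replicates. The skins were matched by competence, with E9 scale set against E7 feather and E11 scale against E9 feather, since feathers begin earlier than scales.

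Type I, III and V collagens assemble into the striated fibrils of the dermis, in which type V lies within the fibril and limits its width. Type VI collagen, made of 3 different chains, forms beaded filaments around cells. Types XII and XIV have interrupted helices and sit on the surface of fibrils, where they link fibrils to each other and to proteoglycans. In embryonic skin mesenchymal cells are the main producers of most of these chains. Avian embryonic epithelia, the cornea above all, are also known to make collagen.

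A pair of arrays stood apart from the other arrays of their groups, and leaving them out was added after the data were seen. The array labelled E9fe replicate 1 had SP8, a limb transcription factor, at 10.16, against 3.98 and 4.01 on the other E9fe arrays, beside 9.50 to 10.15 on the scale epithelium arrays. The array labelled E9fm replicate 1 had TBX4, the hindlimb transcription factor, at 10.39, against 5.29 and 5.35 on the other E9fm arrays, and HOXC9, a gene of trunk position, at 5.82, against 9.69 and 9.56. Its TBX4 and HOXC9 levels went against its feather label and lay near those of the scale mesenchyme arrays, at 10.11 to 11.16 and 4.94 to 5.49. On the scale epithelium arrays HOXC9 was at 9.33 to 10.01, so that it was low in scale skin only in mesenchyme. These 3 genes were chosen after their values were seen. The labels were followed. The differences of the collagens in E9 feather skin and the counts of the gene lists are given with both arrays and, where they entered, also without both.

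The compartment labels were borne out by the markers of each tissue. The mean of 20 dermal mesenchyme markers lay between 9.00 and 9.44 on the mesenchyme arrays, and between 5.46 and 6.09 on the epithelium arrays other than the one labelled E9fe replicate 1, which had 7.04. The mean of 18 epithelium markers lay between 5.45 and 6.60 on the mesenchyme arrays other than the one labelled E9fm replicate 1, which had 7.21, and between 8.87 and 9.64 on the epithelium arrays. TWIST2, a dermal regulator, had levels of 12.07 to 12.96 in mesenchyme and 3.34 to 9.39 in epithelium, the highest of the epithelial values being that of the array labelled E9fe replicate 1. CDH1, the epithelial cadherin, had levels of 4.92 to 9.54 in mesenchyme, the highest being that of the array labelled E9fm replicate 1, and 12.19 to 12.78 in epithelium.

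**Figure D1:**
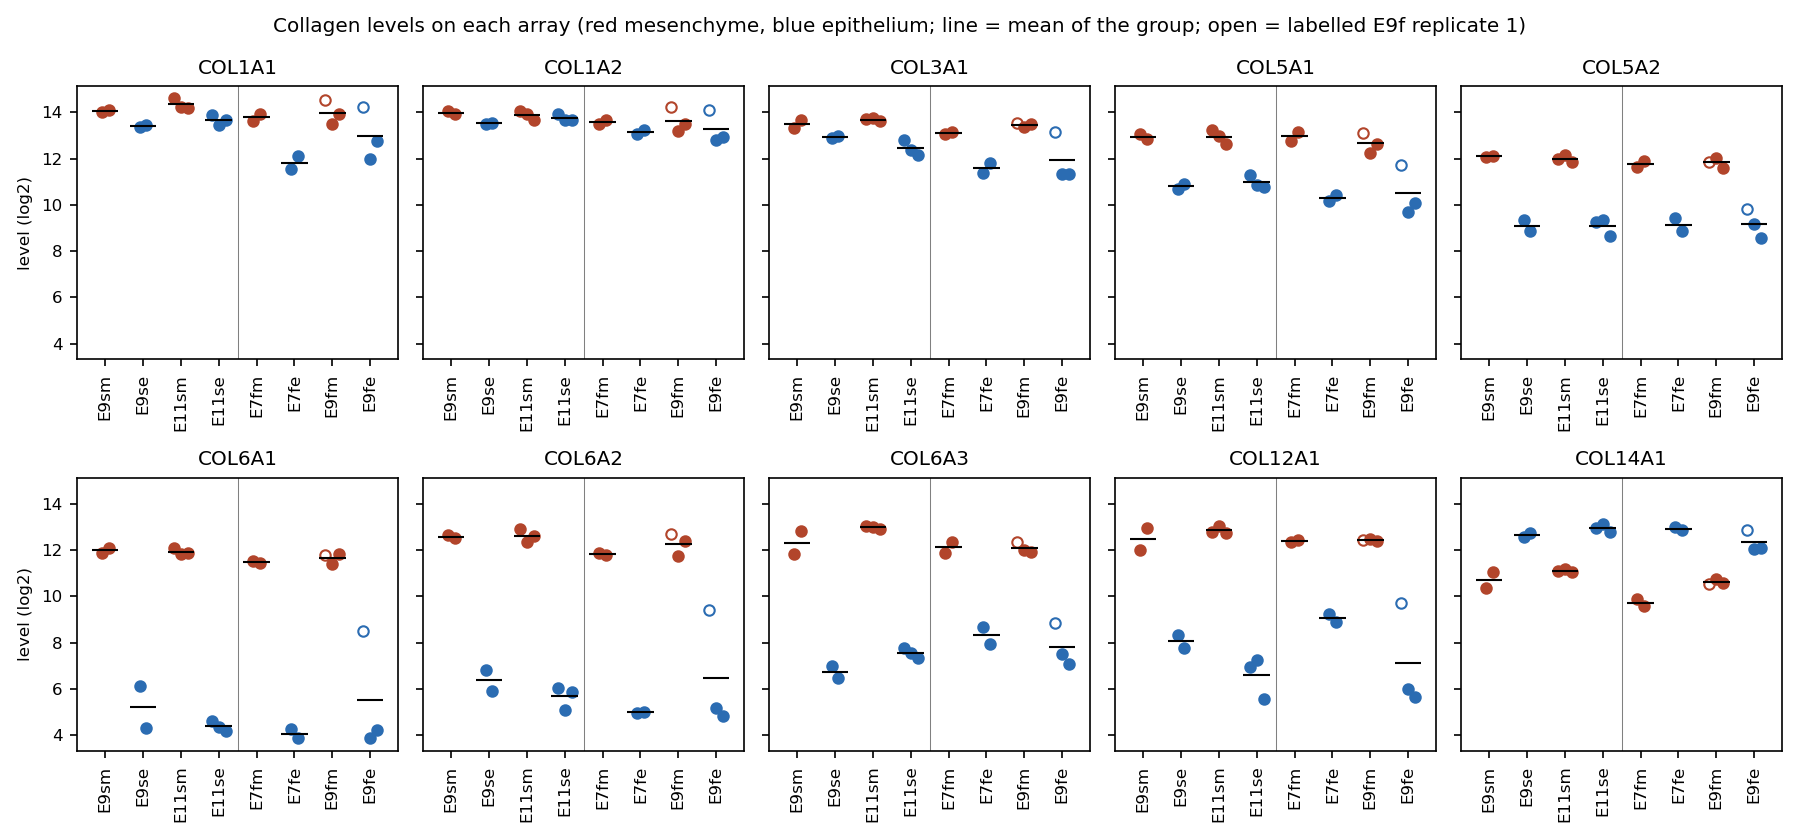
Level (log2) of each collagen on every array, with mesenchyme in red and epithelium in blue, scale skin left of the vertical line and feather skin right of it, and the mean of the group as a line. The open points are the arrays labelled E9fm and E9fe replicate 1; COL6A1, COL6A2, COL6A3 and COL12A1 separate the compartments widely, and COL14A1 is the gene with the epithelium above the mesenchyme in all 4 skins.

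Mesenchyme was set against epithelium in each skin to ask which chains mark the dermal side. Of the 10 collagens, 8 rose and 1 fell in mesenchyme at E7 in feather skin, 7 rose and 1 fell at E9 in feather skin, 6 rose and 1 fell at E9 in scale skin, and 7 rose and 1 fell at E11 in scale skin (limma, adjusted p below 0.05 over 38439 probe sets). Over all probe sets, the shares that rose in mesenchyme were 6.28% in E7 feather, 8.42% in E9 feather, 6.75% in E9 scale and 9.41% in E11 scale skin, and the shares that fell were 6.07%, 8.55%, 7.05% and 9.40% in the same order of skins. The median difference of the 10 collagens was 2.64, 2.41, 2.58 and 2.43 log2 units in these skins, beside medians of -0.03, 0.00, 0.01 and -0.06 over all probe sets. Without the arrays labelled E9fe and E9fm replicate 1 the counts were 8 risen and 1 fallen in E7 feather, 8 and 1 in E9 feather, 6 and 1 in E9 scale and 8 and 1 in E11 scale skin, beside shares of all probe sets that rose of 7.29%, 8.68%, 7.81% and 10.5% and that fell of 6.91%, 8.89%, 8.25% and 10.7%. The 1 that fell was COL14A1 in each skin. The compartments did not overlap in 10 collagens at E7 and 8 at E9 in feather skin, and in 10 at E9 and 9 at E11 in scale skin, beside 49% and 26.4%, and 55% and 29.3%, of all probe sets in either direction. In such bulk samples, fewer cells that express a gene and less of its RNA per cell cannot be told apart.

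**Figure D2:**
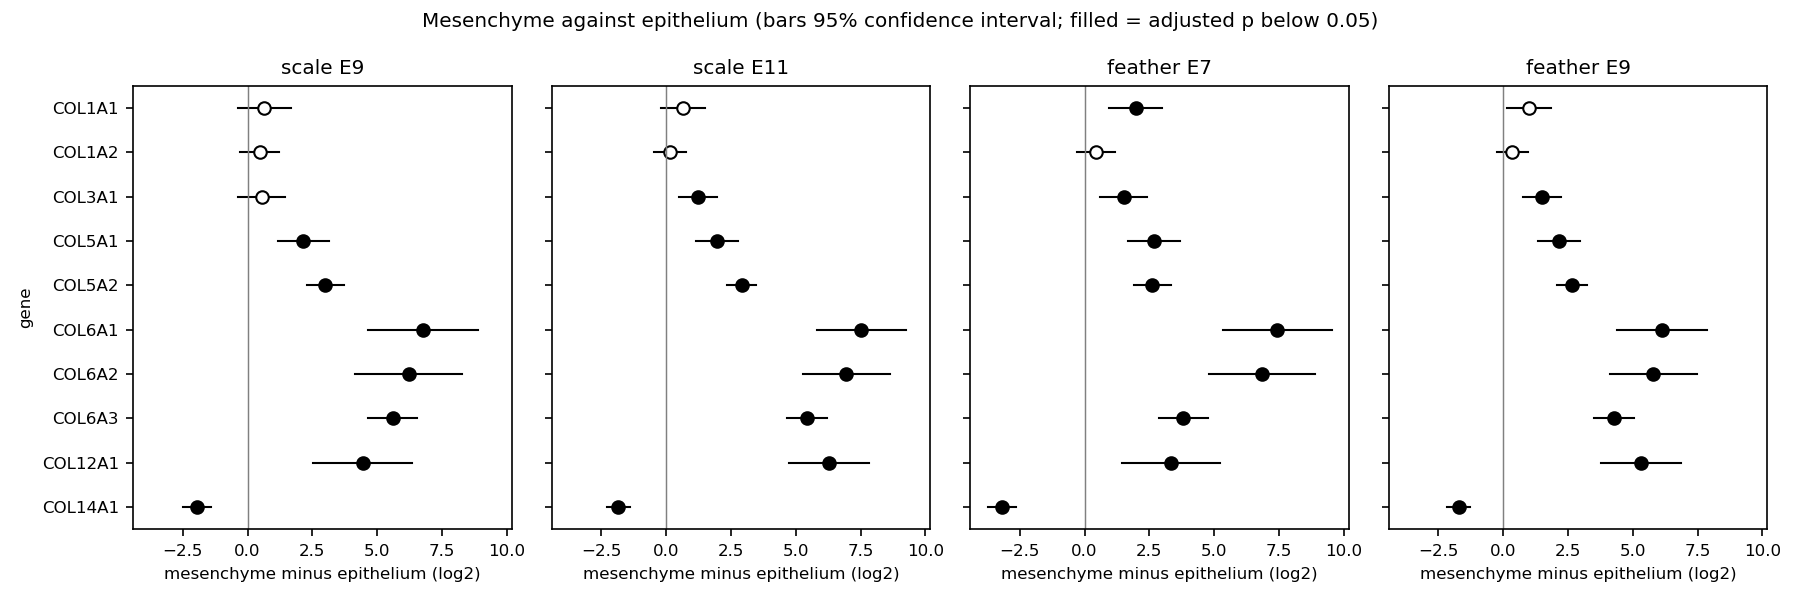
Difference between mesenchyme and epithelium (log2) of each collagen in the 4 skins, with 95% confidence intervals from the limma fit; filled points passed an adjusted p of 0.05. COL6A1 had differences of 6.13 to 7.54, COL1A2 had none that passed with all 20 arrays, and COL14A1 lay below 0 throughout.

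COL6A1 and COL6A2, both type VI chains, had the widest separation of the 10 in each skin. COL6A1, the first chain of the beaded filament, had levels of 11.89 and 12.09 in E9sm and 12.08, 11.83 and 11.88 in E11sm, against 6.13 and 4.33 in E9se and 4.62, 4.36 and 4.20 in E11se. In feather skin COL6A1 had levels of 11.55 and 11.42 in E7fm and 11.80, 11.39 and 11.83 in E9fm, against 4.25 and 3.86 in E7fe and 8.52, 3.88 and 4.22 in E9fe. The compartments did not overlap in any skin, and 8 of the 10 epithelium arrays lay below 5, the exceptions being the arrays labelled E9fe replicate 1 and E9se replicate 1. COL6A1 was 7.54 ± 0.81 log2 units higher in mesenchyme at E11 in scale skin (SE, limma, adjusted p = 3.28e-06), and 6.76 ± 0.99 higher at E9 in scale skin (adjusted p = 0.000143). In feather skin it was 7.43 ± 0.99 higher at E7 and 6.13 ± 0.81 higher at E9. Without the arrays labelled E9fe and E9fm replicate 1 the E9 feather difference was 7.56. On 8 of the 10 epithelium arrays COL6A1 lay below the median of all probe sets of that array, and no detection call was used, so no fold is given.

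COL6A2, whose gene neighbours COL6A1 in the RefSeq annotation, followed the same course. It had levels of 12.65 and 12.52 in E9sm and 12.92, 12.37 and 12.60 in E11sm, against 6.82 and 5.93 in E9se and 6.05, 5.10 and 5.89 in E11se. In feather skin its levels were 11.88 and 11.80 in E7fm and 12.68, 11.74 and 12.38 in E9fm, against 4.96 and 5.01 in E7fe and 9.41, 5.17 and 4.83 in E9fe. Differences between mesenchyme and epithelium ran from 5.80 at E9 in feather skin to 6.95 at E11 in scale skin, and all 4 passed; without the arrays labelled E9fe and E9fm replicate 1 the E9 feather difference was 7.06. On 5 of the 10 epithelium arrays COL6A2 lay below the median of the array. Over the 20 arrays the levels of COL6A1 and COL6A2 correlated with an r of 0.996, a description across arrays that share the split into compartments, and they correlated with an r of 0.918 over the 10 mesenchyme arrays alone. Without both arrays that stood apart these were 0.996 and 0.946, over 18 and 9 arrays. A second probe set of COL6A2 had differences of -0.14 to 0.25 with all arrays and passed in no skin, also without both. Its level lay between 5.57 and 6.68 over the 20 arrays, with an r of 0.08 to the probe set used.

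COL6A3, the large chain of the trio, was also higher in mesenchyme in each skin. Its levels were 11.82 and 12.82 in E9sm and 13.04, 13.01 and 12.93 in E11sm, against 7.00 and 6.46 in E9se and 7.77, 7.53 and 7.32 in E11se. In feather skin its levels were 11.88 and 12.36 in E7fm and 12.33, 11.98 and 11.92 in E9fm, against 8.69 and 7.95 in E7fe and 8.83, 7.51 and 7.06 in E9fe. The mesenchyme exceeded the epithelium by 5.59 ± 0.45 at E9 and 5.45 ± 0.36 at E11 in scale skin (adjusted p = 2.7e-07 and 1.62e-08), and by 3.80 ± 0.45 at E7 and 4.28 ± 0.36 at E9 in feather skin, the last being 4.67 without the arrays that stood apart. The difference between E9 scale and E7 feather skin in this separation was 1.79 and did not pass (adjusted p = 0.415). The other probe set of COL6A3, at 3.10 to 5.63 over the arrays, gave smaller differences, of 0.79 to 1.99, all of which passed.

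COL12A1, a chain of the fibril surface found where tissue bears tension, varied in epithelium more than in mesenchyme. Its levels in mesenchyme were 12.02 and 12.97 in E9sm, 12.77, 13.04 and 12.76 in E11sm, 12.35 and 12.43 in E7fm and 12.44, 12.49 and 12.39 in E9fm. In epithelium they were 8.34 and 7.77 in E9se, 6.95, 7.23 and 5.56 in E11se, 9.23 and 8.88 in E7fe, and 9.70, 5.99 and 5.65 in E9fe. The 10 mesenchyme arrays thus lay between 12.02 and 13.04, and the 10 epithelium arrays between 5.56 and 9.70. COL12A1 was higher in mesenchyme by 4.44 ± 0.89 at E9 and 6.28 ± 0.73 at E11 in scale skin, and by 3.33 ± 0.89 at E7 and 5.32 ± 0.73 at E9 in feather skin, the last being 6.61 without the arrays that stood apart. All 4 passed, and the other 3 probe sets of COL12A1 gave differences of the same sign that passed in every skin. The E7 feather call was lost when any 1 of the 4 E7 arrays was left out, with adjusted p between 0.0757 and 0.119.

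COL14A1, the second chain of the fibril surface, ran the other way. Its levels were 10.35 and 11.05 in E9sm and 11.08, 11.18 and 11.06 in E11sm, against 12.55 and 12.75 in E9se and 12.94, 13.15 and 12.78 in E11se. In feather skin its levels were 9.87 and 9.59 in E7fm and 10.55, 10.75 and 10.56 in E9fm, against 12.98 and 12.89 in E7fe and 12.85, 12.07 and 12.08 in E9fe. The lowest epithelium array stood above the highest mesenchyme array over the whole series. Relative to epithelium, mesenchymal COL14A1 fell by 3.20 ± 0.26 log2 units at E7 in feather skin (adjusted p = 2.87e-07), a 9.20-fold difference, and by 1.71 ± 0.21 at E9 in feather skin (adjusted p = 1.75e-05). In scale skin it fell by 1.95 ± 0.26 at E9 (adjusted p = 4.53e-05) and by 1.85 ± 0.21 at E11 (adjusted p = 5.51e-06). Of its 6 probe sets, 5 passed in this direction at E7 in feather skin and at both stages in scale skin, and 4 at E9 in feather skin (3 without the arrays that stood apart); none passed in the other direction. Without the arrays labelled E9fe and E9fm replicate 1 the E9 feather difference was -1.42, still past the threshold.

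The type V chains separated the compartments by a smaller but steady margin. COL5A1, the chain without which type V does not assemble, was higher in mesenchyme by 2.15 ± 0.47 at E9 and 1.96 ± 0.38 at E11 in scale skin, and by 2.66 ± 0.47 at E7 and 2.16 ± 0.38 at E9 in feather skin, the last being 2.54 without the arrays that stood apart. It lay between 12.23 and 13.23 on the mesenchyme arrays and between 9.70 and 11.73 on the epithelium arrays, with no overlap. COL5A2, whose gene neighbours COL3A1, was higher by 3.0 ± 0.33 and 2.91 ± 0.27 in scale skin and by 2.61 ± 0.33 and 2.66 ± 0.27 in feather skin, the last being 2.96 without those arrays. Its mesenchyme arrays spanned 11.61 to 12.16 and its epithelium arrays 8.55 to 9.82. All 8 differences of the 2 genes passed, as did both other probe sets of COL5A2 in each skin. Of the 3 probe sets of COL5A1, 2 rose and passed in each skin but E9 scale. There 1 passed with all arrays and 2 without the arrays that stood apart. The probe set that passed in no skin, at 3.12 to 4.06 over the arrays, had differences of -0.37 to 0.14.

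COL3A1, the fibril chain of loose and early dermis, rose in mesenchyme at E7 and E9 in feather skin by 1.50 ± 0.42 and 1.52 ± 0.35 (adjusted p = 0.0261 and 0.00512) and at E11 in scale skin by 1.23 ± 0.35 (adjusted p = 0.0179). The E9 feather difference was 2.10 without the arrays that stood apart. At E9 in scale skin the levels were 13.32 and 13.65 in E9sm against 12.90 and 12.99 in E9se. Those arrays did not overlap, yet the difference of 0.54 ± 0.42 did not pass (adjusted p = 0.556). Of the 6 probe sets of COL3A1, 4 rose and passed at E7 and 5 at E9 in feather skin, and 5 at E11 in scale skin. At E9 in scale skin their differences ran from -0.53 to 1.47, and 1 passed, or 3 without the arrays that stood apart. The E7 feather call was lost when any 1 of its 4 arrays was left out (adjusted p 0.0582 to 0.194), the E9 feather call when only the groups compared were fitted (0.107), and the E11 scale call without E11se replicate 2 or 3 or E11sm replicate 1 or 2 (0.0514 to 0.0756).

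The type I chains, which make up most of the collagen fibril, were high in both compartments. COL1A1 had levels of 14.02 and 14.12 in E9sm and 14.60, 14.25 and 14.18 in E11sm, against 13.39 and 13.45 in E9se and 13.90, 13.46 and 13.68 in E11se. In feather skin its levels were 13.64 and 13.94 in E7fm and 14.53, 13.49 and 13.93 in E9fm, against 11.56 and 12.09 in E7fe and 14.22, 11.99 and 12.75 in E9fe. The E9 feather groups overlapped through the array labelled E9fe replicate 1; in the other skins they did not. COL1A1 rose in mesenchyme at E7 in feather skin, by 1.97 ± 0.49 (adjusted p = 0.0111), a call lost without E7fe replicate 1 (0.113) or E7fm replicate 2 (0.0952). Its difference at E9 in feather skin, 0.99 ± 0.40, did not pass with all arrays (adjusted p = 0.108) and was 1.34 and passed without the arrays labelled E9fe and E9fm replicate 1 (0.00203). In scale skin the differences of 0.65 ± 0.49 at E9 and 0.66 ± 0.40 at E11 did not pass (adjusted p = 0.528 and 0.323). The E11 difference passed without the arrays that stood apart (0.0400), and the E9 difference when only the groups compared were fitted (0.0493). With replicate numbers as a block within each skin, the E9 feather and E11 scale differences passed (adjusted p = 0.00444 and 0.0328).

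COL1A2, the partner chain in the type I triple helix, passed in no skin with all arrays. Its differences were 0.46 ± 0.35 at E9 and 0.15 ± 0.29 at E11 in scale skin, with 95% intervals of -0.28 to 1.20 and -0.45 to 0.76, and 0.45 ± 0.35 at E7 and 0.35 ± 0.29 at E9 in feather skin, with intervals of -0.30 to 1.19 and -0.25 to 0.96. At E9 in feather skin the difference was 0.46 without the arrays that stood apart (adjusted p = 0.0840), and 0.76 and past the threshold without E9fe replicate 1 alone (0.0302). None of its 8 probe sets passed in any skin with all arrays, and without both arrays 1 passed at E7 and 1 at E9 in feather skin. The lowest mean levels among these probe sets were 3.37 and 3.59. Both type I genes stood near the top of the scale of the arrays: COL1A1 was the highest probe set on 2 arrays and at most 2.79 log2 units below the highest on any, and COL1A2 at most 1.58 below. The part of this position in the small differences was not tested.

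**Figure D3:**
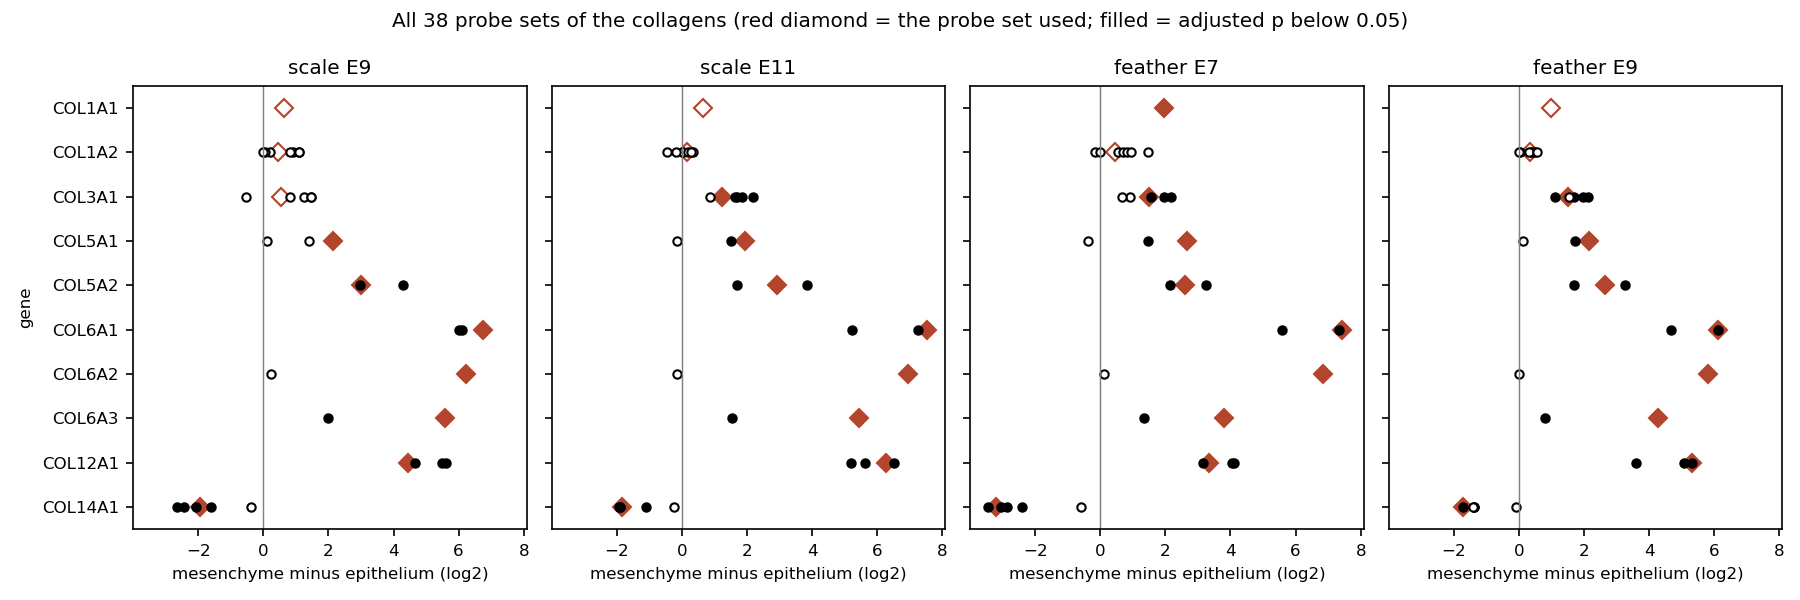
Difference between mesenchyme and epithelium (log2) of all 38 probe sets of the collagens, with the probe set used for each gene as a red diamond and the others as black circles; filled symbols passed an adjusted p of 0.05. All 20 arrays were used; among the other 28 probe sets, 13 to 17 per skin passed in the direction of the one used, and none in the opposite direction.

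Markers of other tissues moved with the compartments too. Over all probe sets, 6.28% to 9.41% rose in mesenchyme and 6.07% to 9.40% fell, according to skin. In E9 feather skin without the arrays that stood apart, 8.68% rose and 8.89% fell. In mesenchyme, 13 to 15 of the 20 dermal mesenchyme markers rose, as did 5 to 10 of 13 endothelium markers, 2 to 8 of 8 erythroid markers, 3 to 7 of 12 cartilage, bone and tendon markers and 1 to 8 of 16 skeletal muscle markers, according to skin, while 14 or 15 of 18 epithelium markers fell. Without the arrays that stood apart, E9 feather skin had 16 dermal, 11 endothelium, 7 erythroid, 3 cartilage, bone and tendon and 9 muscle markers that rose and 13 epithelium markers that fell. The mean level of the erythroid markers was 7.70 to 10.47 on the mesenchyme arrays and 5.56 to 7.40 on the epithelium arrays, and that of the endothelium markers 5.99 to 7.76 and 4.61 to 5.18. The part of these tissues in the collagen levels was not tested.

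The collagens were described on the epithelium arrays with the highest means of the dermal markers. On the array labelled E9fe replicate 1 all 10 collagens were higher than the mean of the other E9fe arrays, by 0.78 for COL14A1 to 4.47 for COL6A1. The mean of the 10 was 11.23 on it, against 8.96 and 8.95 on the others and 12.22 to 12.95 on the mesenchyme arrays. E9se replicate 1, with the second-highest dermal marker mean among the epithelium arrays (6.09), had COL6A1 at 6.13, against 4.33 on E9se replicate 2. COL5A2, COL6A2, COL6A3 and COL12A1 were also higher on E9se replicate 1 than on replicate 2, while COL1A1, COL1A2, COL3A1, COL5A1 and COL14A1 were lower. Whether mesenchyme RNA on these arrays accounts for their collagen levels was not tested. COL14A1, lower in mesenchyme, was at 12.85 on the array labelled E9fe replicate 1, against 12.07 and 12.08 on the other E9fe arrays. On the scale epithelium arrays it lay between 12.55 and 13.15, and on the E7 feather epithelium arrays it was 12.98 and 12.89.

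**Figure D4:**
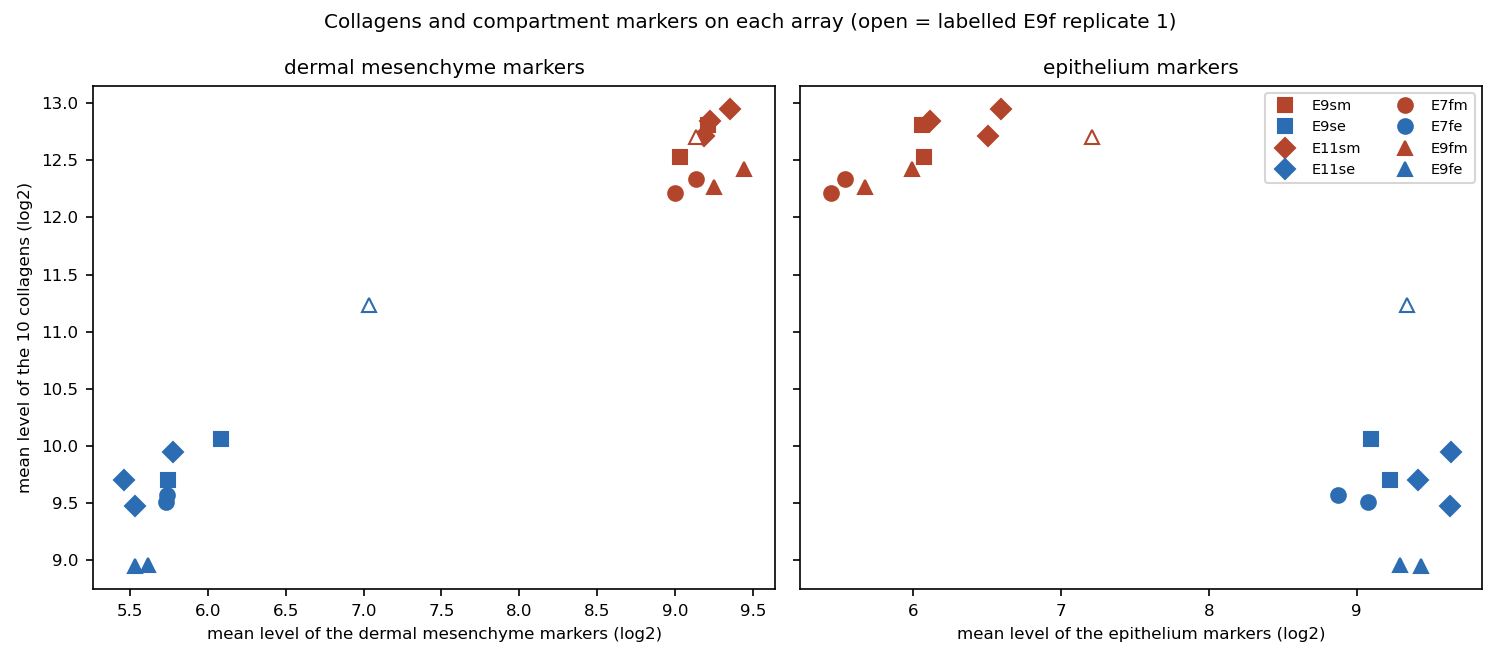
Mean level (log2) of the 10 collagens on each array against the mean level (log2) of the dermal mesenchyme markers (left) and of the epithelium markers (right), with mesenchyme in red, epithelium in blue and a symbol for each skin. The open blue triangle, labelled E9fe replicate 1, lies between the compartments at 7.04 for dermal markers and 11.23 for collagens.

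Scale and feather skin of like competence were compared to describe the 10 collagens by kind of appendage. The groups compared also differ in embryonic day and body region, which cannot be told apart from the kind of appendage here. None of the 10 passed in any of the 4 comparisons (limma), beside 0.817% of probe sets called in E9se against E7fe, 0.788% in E9sm against E7fm, 0.312% in E11se against E9fe and 0.0052% in E11sm against E9fm. At an unadjusted p below 0.05 there were 3, 1, 1 and 2 collagens in the same order, beside 6.54%, 6.59%, 5.76% and 4.71% of all probe sets. These comparisons share arrays with the stage comparisons below, so that their values are not independent. In mesenchyme the differences were small, from -0.02 to 0.97 for E9sm against E7fm and from 0.16 to 0.91 for E11sm against E9fm. The largest was that of COL14A1, at 10.35 and 11.05 in E9sm against 9.87 and 9.59 in E7fm. This was a difference of 0.97 ± 0.26 (limma, adjusted p = 0.119) between groups that did not overlap (39.5% of probe sets did not). Without the arrays that stood apart, neither of which is in these groups, it passed (0.0236, beside 2.01% of probe sets). Both arrays had entered the pooled estimate of the spread, and COL14A1 did not pass when only the groups compared were fitted. COL6A3 was 0.91 ± 0.36 higher in E11sm than in E9fm, again without overlap (6.47% of probe sets), and did not pass (adjusted p = 0.847).

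In epithelium the scale and feather values differed more. COL1A1 was 13.39 and 13.45 in E9se against 11.56 and 12.09 in E7fe, a difference of 1.59 ± 0.49 (adjusted p = 0.224), and COL3A1 was 12.90 and 12.99 in E9se against 11.39 and 11.83 in E7fe, a difference of 1.33 ± 0.42 (adjusted p = 0.261). COL6A3 was 7.00 and 6.46 in E9se against 8.69 and 7.95 in E7fe, a difference of -1.59 ± 0.45 (adjusted p = 0.156). The groups of these 3 genes did not overlap, as was so for 9 of the 10 collagens and 36.9% of all probe sets. COL5A2 stood at 9.34 and 8.87 in E9se and at 9.41 and 8.87 in E7fe, a difference of -0.04 with a 95% interval of -0.74 to 0.66. Neither array that stood apart belongs to these groups, but both entered the pooled estimate of the spread. Without both, COL1A1 (adjusted p = 0.0038), COL3A1 (0.00236), COL6A2 (0.0457) and COL6A3 (0.0152) passed in E9se against E7fe with the same differences, and COL1A1 (0.0239) and COL3A1 (0.0337) also passed when only these 2 groups were fitted; 1.98% of all probe sets were called without both arrays.

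For E11se against E9fe the array labelled E9fe replicate 1 set the outcome. With it, all 10 collagens overlapped between the groups, where 7.23% of probe sets did not, and the differences ran from -1.15 for COL6A1 to 0.69 for COL1A1. Without it and the array labelled E9fm replicate 1, 5 collagens were higher in E11se and passed: COL1A1 by 1.31 (adjusted p = 0.00696), COL3A1 by 1.12 (0.00376), COL5A1 by 1.10 (0.0158), COL14A1 by 0.88 (0.0211) and COL1A2 by 0.86 (0.00663), beside 2.65% of all probe sets called. COL6A1, COL6A2, COL6A3 and COL12A1 then changed sign, to 0.34, 0.68, 0.25 and 0.76, and did not pass. At the same age, E9se against E9fe likewise gave 0 passing collagens with all arrays (0.0754% of probe sets; 2 collagens and 7.39% of probe sets at an unadjusted p below 0.05) and 4 without both arrays, namely COL12A1 (2.24), COL3A1 (1.61), COL6A2 (1.37) and COL1A1 (1.05), beside 3.19% of all probe sets. E9sm against E9fm gave 0 passing collagens in either case, beside 0% of probe sets with all arrays and 2.87% without both. With all arrays its differences were 0.02 to 0.34, with 0 collagens and 6.52% of probe sets at an unadjusted p below 0.05.

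**Figure D5:**
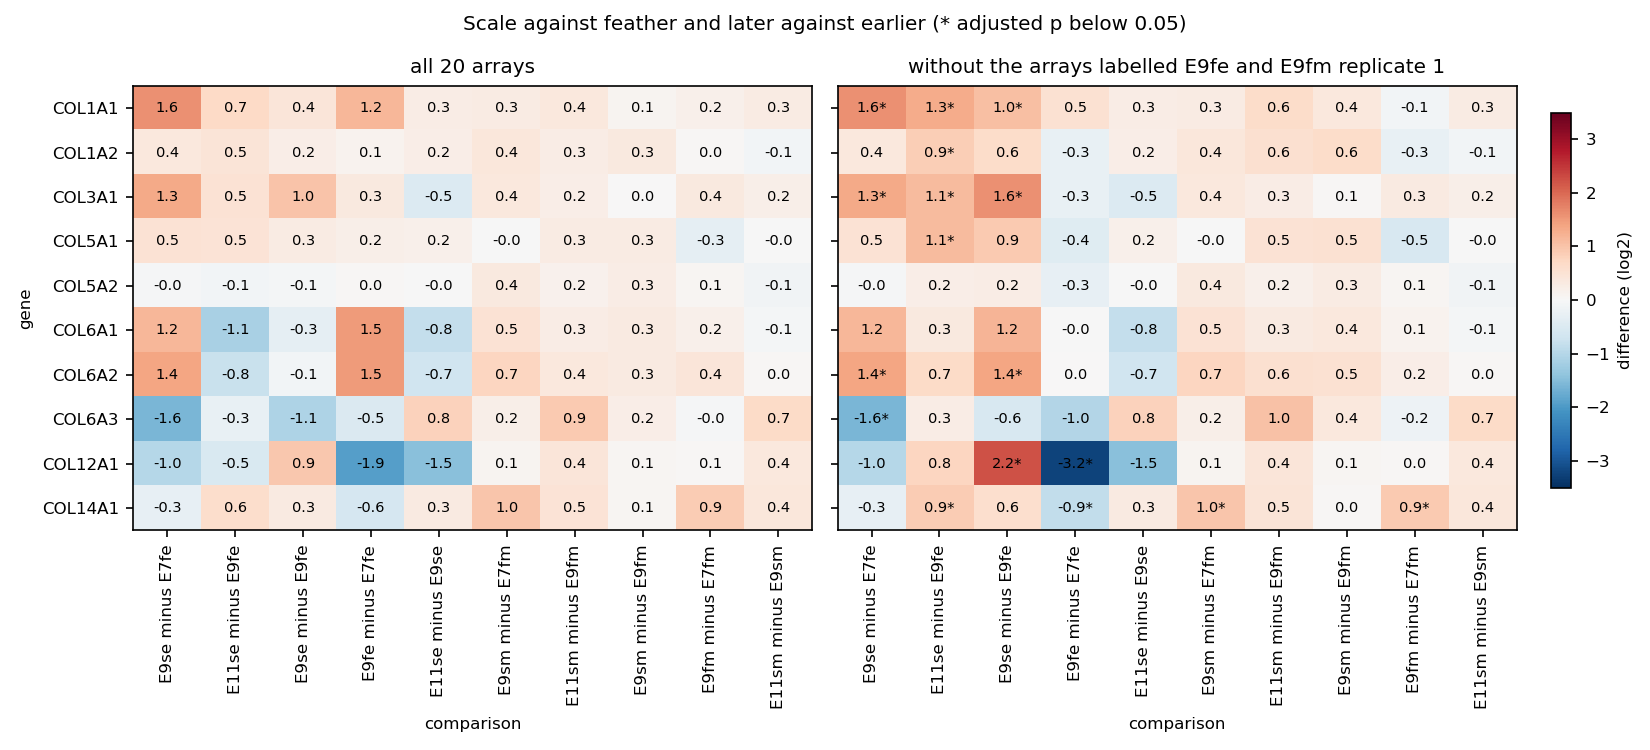
Difference (log2, colour and number) of each collagen in the scale against feather and later against earlier comparisons, with all 20 arrays (left) and without the arrays labelled E9fe and E9fm replicate 1 (right); an asterisk marks an adjusted p below 0.05. No cell passes on the left, and on the right the passing cells lie mostly in epithelium, with COL14A1 the gene that passes in mesenchyme.

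Later and earlier stages of one tissue were compared to ask how the collagens change as the appendage forms. None of the 10 passed in E9fe against E7fe, E9fm against E7fm, E11se against E9se or E11sm against E9sm (limma), beside 0.637%, 0.520%, 0.676% and 0% of probe sets, with 3, 1, 0 and 0 collagens at an unadjusted p below 0.05, where 6.57%, 9.01%, 10.2% and 2.71% of probe sets lay. In the feather mesenchyme COL14A1 was 10.55, 10.75 and 10.56 in E9fm against 9.87 and 9.59 in E7fm, with no overlap (23.1% of probe sets had none), a difference of 0.89 ± 0.23 (adjusted p = 0.133). It was 0.92 and passed without the arrays that stood apart (adjusted p = 0.0304, beside 2.27% of probe sets). In the feather epithelium COL14A1 moved the other way, by -0.60 ± 0.23 with all arrays (adjusted p = 0.509) and by -0.86 without both (0.0469).

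COL12A1 differed most between stages of the feather epithelium. It was 9.70, 5.99 and 5.65 in E9fe against 9.23 and 8.88 in E7fe, and the groups, which did not overlap in 19.9% of probe sets, overlapped through the array labelled E9fe replicate 1 alone. The difference was -1.94 ± 0.82 with all arrays (adjusted p = 0.607) and -3.23 without both arrays (0.000619, beside 2.22% of probe sets), while in the feather mesenchyme it was 0.05 ± 0.82. In the scale epithelium COL12A1 was 6.95, 7.23 and 5.56 in E11se against 8.34 and 7.77 in E9se, without overlap (24.8% of probe sets had none), a difference of -1.48 ± 0.82 that did not pass (adjusted p = 0.576), and that was -1.48 and did not pass without the arrays that stood apart either. In the scale mesenchyme the 10 collagens differed by -0.11 to 0.67 between E11sm and E9sm.

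The separation of mesenchyme and epithelium was itself compared between skins. No collagen passed in any of the 6 such differences of differences with all arrays (limma; 0 to 2 collagens, and 3.06% to 7.34% of probe sets, at an unadjusted p below 0.05). Of all probe sets, 0.411% were called for E9 against E7 feather skin, 0.0104% for E11 against E9 scale skin, 0.492% for E9 scale against E7 feather skin and 0.0702% for E11 scale against E9 feather skin. The change with stage in the difference between scale and feather skin was called for 0.127% of probe sets in epithelium and 0.0442% in mesenchyme. The nearest was COL14A1, whose separation changed by 1.49 ± 0.33 between E7 and E9 in feather skin (adjusted p = 0.0707), as its mesenchyme level stood higher and its epithelium level lower at E9; with a trended, robust variance prior it passed on all arrays (0.0319). Without the arrays that stood apart, 2 collagens passed between E7 and E9 in feather skin, COL12A1 and COL14A1, beside 2.62% of probe sets, and 1 between E9 scale and E7 feather skin, COL14A1, beside 1.68%.

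The genes that process and bind these chains were described by lists, with all 20 arrays unless stated otherwise. Beside all list counts of mesenchyme against epithelium, 6.28% to 9.41% of all probe sets rose and 6.07% to 9.40% fell, according to skin. Without the arrays that stood apart these shares were 7.29% to 10.5% and 6.91% to 10.7%. Counts as low as 1 gene of a list lie near these shares. Of 17 genes for folding and modification of collagen, 1 to 5 rose and at most 1 fell in mesenchyme, according to skin. P4HA3, a prolyl hydroxylase subunit, rose in all 4 skins, by 3.80 to 5.16, and P4HA2 rose at E9 in feather skin by 1.53 and at E11 in scale skin by 1.98. Without the arrays that stood apart P4HA2 also rose at E9 in scale skin, by 1.22 (limma, adjusted p = 0.0403). Its E9 feather difference was then 1.99. TMEM38B, an ion channel of the endoplasmic reticulum that collagen synthesis requires, fell at E9 in both skins, by 1.43 in feather and by 1.46 in scale. Of 12 genes of collagen secretion, 1 to 4 rose and 1 fell. SEC24D, a coat protein of the vesicles that carry procollagen, rose by 1.56 to 2.62 in the 4 skins, and CREB3L2, a transcription factor for that coat, fell by 0.77 to 1.43, a call lost at E9 in feather skin without the arrays that stood apart (-0.56, adjusted p = 0.0983).

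Of 12 genes that cleave propeptides and cross-link fibrils, 2 or 3 rose and at most 1 fell in mesenchyme. LOX, the lysyl oxidase that starts cross-linking, rose by 3.69 to 5.11 in the 4 skins. LOXL3, a related oxidase, had 7.58 and 7.71 in E7fm and lay between 4.31 and 6.35 on the other mesenchyme arrays. It fell by 2.84 in E9sm relative to E7fm (adjusted p = 0.000684) and by 2.18 in E9fm relative to E7fm (adjusted p = 0.00387). Of 14 collagen-cleaving proteases and inhibitors, 7 or 8 rose and none fell in mesenchyme: the gelatinase MMP2 rose by 4.91 to 5.93 and MMP27 by 4.52 to 6.46.

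Proteins that coat fibrils were described likewise. Of 25 fibril-binding proteoglycans and glycoproteins, 12 rose in mesenchyme at E7 and 14 at E9 in feather skin, and 15 at E9 and 19 at E11 in scale skin. Without the arrays that stood apart, 13, 19, 17 and 19 rose in the same order of skins. OGN, the proteoglycan osteoglycin, rose by 6.03 to 7.95 and KERA, keratocan, by 4.89 to 7.15. ABI3BP, an extracellular matrix protein, was the 1 that fell in each skin, by 1.77 to 3.91, and so shared the direction of COL14A1. Without the arrays that stood apart its E9 feather difference was -0.93 and did not pass (adjusted p = 0.132). It had 4.22 and 4.48 in E7fm, against 6.90 and 7.77 in E9sm, and rose by 2.98 in E9sm relative to E7fm (adjusted p = 0.0174) and by 2.45 in E9fm relative to E7fm (adjusted p = 0.0392). THBS2, a thrombospondin, rose in E9sm relative to E7fm by 2.17 (adjusted p = 0.00772), one of 4 members of the list to rise there. Of all probe sets, 0.788% were called there in either direction.

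Receptors split between the compartments. Of 9 genes for collagen receptors and uptake, 3 to 6 rose and 2 fell in mesenchyme. ITGA2, the collagen-binding integrin chain of epithelia, fell by 3.62 to 4.39, and DDR1, the discoidin receptor of epithelia, by 1.48 to 2.07. CSPG4, a proteoglycan that binds type VI collagen, rose by 2.35 to 2.74, and ITGA11, the collagen-binding integrin chain of fibroblasts, rose by 1.32 to 2.83, a call lost at E9 in feather skin without the arrays that stood apart (adjusted p = 0.111).

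Among 31 other collagens, 3 to 6 rose and 4 to 8 fell in mesenchyme. COL17A1, the hemidesmosome collagen of basal keratinocytes, fell by 4.97 to 5.46, and the basement membrane chain COL4A5 fell by 2.40 to 3.47. COL23A1, a transmembrane collagen, rose by 3.65 to 4.41. In the epithelium COL4A2, another basement membrane chain, was 10.07 and 10.35 in E9se against 5.64 and 4.37 in E7fe, a rise of 5.21 (adjusted p = 0.0211), and COL21A1 rose there by 1.92 (adjusted p = 0.0463). In these lists, genes called in the comparisons other than mesenchyme against epithelium numbered 0 to 4 per list, beside 0% to 0.817% of all probe sets. Without the arrays that stood apart they numbered up to 9, namely 9 fibril-binding genes in E9sm against E7fm (8 higher, 1 lower), 9 other collagens in E9se against E9fe (8 higher, 1 lower) and 8 in E9se against E7fe (7 higher, 1 lower). Over all probe sets the shares called were 2.01%, 3.19% and 1.98% in the same order. In E9 feather mesenchyme against epithelium, 9 other collagens then rose and 4 fell, 4 genes of folding rose and 1 fell, 2 of secretion and 4 of cross-linking rose, 5 receptors rose and 2 fell, and 8 proteases and inhibitors rose. Of all probe sets, 8.68% rose and 8.89% fell there without both arrays.

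The genes most like the collagens over the 20 arrays were found by Pearson's r, given as a description, since all points share the split into compartments. The mean of the 10 collagens, each scaled to its own mean and SD, was matched most closely by NDRG4 (0.966), TRAM2 (0.965), MEOX2 (0.965), SEC24D (0.963) and ANTXR1 (0.963), followed by AQP1, TNMD, BOC, TMEM47 and PAPSS1 (0.955 to 0.960). COL6A1 and COL6A2 were matched most closely by OGN (0.997 and 0.995), COL12A1 by ANXA5 (0.988), COL6A3 by PLEKHH2 (0.983) and COL5A2 by FAM107B (0.988). COL3A1 was nearest ANTXR1 (0.972), COL5A1 SEPTIN7 (0.967), COL1A1 OSMR (0.930), COL1A2 FBXO22 (0.911) and COL14A1 MAP7 (0.965). Over the 18 arrays without those that stood apart, these pairs had an r of 0.884 (COL1A2 and FBXO22) to 0.997 (COL6A1 and OGN).

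The members also ran together or apart according to the set of arrays. Over all 20 arrays COL14A1 had a negative r with each of the other 9 collagens, from -0.87 with COL5A2 to -0.25 with COL1A2. Over the 10 mesenchyme arrays alone its r was positive with 8 of the 9, and with COL3A1 it was 0.944, against -0.593 over all arrays. Without the arrays that stood apart, its r over the other 9 mesenchyme arrays was again positive with 8 of the 9 and was 0.950 with COL3A1. Over the 10 epithelium arrays, with the array labelled E9fe replicate 1 among them, the r of COL14A1 was positive with all 9. It ran from 0.14 with COL6A1 to 0.64 with COL1A2. The 10 mesenchyme arrays hold 4 skins and the array labelled E9fm replicate 1, and these coefficients are descriptions over few points.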

How the data were processed

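RNA of 20 arrays in 8 groups was analysed. The deposited values were log2 levels that the authors made with affy by RMA (background correction, quantile normalisation and summary per probe set). Quantile normalisation gives arrays nearly equal medians (5.62 to 5.69), so a difference is relative to the whole array. Raw intensities were not used. The number of arrays limits the precision, and the arrays that stood apart entered the pooled estimate of the spread. Of 38535 probe sets, 96 controls were left out. The annotation gave 1 symbol to 27168 probe sets, several to 177 and none to 11094.

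The test was limma 3.58.1 in R 4.3.3, with 1 mean per group over all arrays, eBayes and Benjamini-Hochberg adjustment over 38439 probe sets. In simulated data for E9sm against E7fm, on 38439 probe sets, 46% of changes of 1 log2 unit, 92% of 2 and 96% of 3 were recovered. The changed probe sets were drawn at random, so these shares need not hold for the collagens. The spread within groups was at percentile 50.6 of all probe sets for COL14A1, and from 75.7 (COL5A2) to 99.8 (COL6A1) for the other collagens. P-values measure the spread between arrays; the Methods of the study give other arrays per group than the labels, which were followed.

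The 10 collagens and the lists were chosen with earlier results of these data known. Named list genes were up to 2 in each direction with the largest difference among those passing without overlap of groups; not all are printed. Markers are given as counts and ranges, and likeness as the highest r.

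Replicate numbers were checked for pairing. Same-numbered arrays deviated together in E9fe and E9fm (r 0.259 to 0.460) and in E11se and E11sm (0.336 to 0.707), each over 3 pairs. The main fit held no pairing, and replicate numbers entered only as blocks in alternative fits. With blocks within skin, COL1A1 passed at E9 in feather and at E11 in scale skin, unlike in the main fit. The arrays that stood apart form 1 of the E9 feather pairs. Arrays of different skins reached an r of 0.652 with the same number and 0.590 with different numbers, so these r alone do not show pairing. The E9 scale (0.197) and E7 feather (-0.374) groups share only numbers.
Alternatives were fits to the groups compared, replicate blocks, a trended robust prior, median-centred arrays, a filter on low levels, means over probe sets, leaving out each array and, added after seeing the data, leaving out both arrays that stood apart and crossing the E7fm numbers.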

Additional observations from a re-analysis of the deposited data

Results flagged for a closer look

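3 differences of differences passed (limma) when the arrays labelled E9fe and E9fm replicate 1 were left out, a choice made after the data were seen, beside 2.62% of probe sets for the change from E7 to E9 in feather skin and 1.68% for E9 scale against E7 feather skin, and none of them passed with all arrays and the ordinary variance prior; with a trended, robust prior that of COL14A1 between E7 and E9 in feather skin passed on all arrays (adjusted p = 0.0319). The separation of mesenchyme and epithelium of COL12A1 was larger at E9 than at E7 in feather skin by 3.28 log2 units without these arrays (adjusted p = 0.00854), and by 1.99 with them (0.833). For COL14A1, lower in mesenchyme, the difference between mesenchyme and epithelium was less negative at E9 than at E7 in feather skin by 1.78 without these arrays (adjusted p = 0.00433), and by 1.49 with them (0.0707). The same difference of COL14A1 was less negative in E9 scale than in E7 feather skin by 1.25 both without these arrays (adjusted p = 0.0478) and with them (0.219), since neither array belongs to those groups. Groups held 2 or 3 arrays, too few to test single arrays of a group as outliers.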

How the results depend on the processing

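With 2 or 3 arrays per group, small differences are beyond these data. In mesenchyme against epithelium no collagen was counted as changing sign under any alternative. Turns of values that did not pass, by less than the spread between replicates, were not counted. Leaving out single arrays gave 6 to 7 passing collagens in E7 feather (9 with all), 8 to 10 in E9 feather (8), 7 to 7 in E9 scale (7) and 7 to 8 in E11 scale skin (8); a lone array was assumed to vary like the other groups. With replicate numbers as a block within skin, the counts were 9, 9, 7 and 9 for E7 feather, E9 feather, E9 scale and E11 scale; the block changed no call other than those of COL1A1 given above. Crossing the E7fm numbers in the replicate block left 9 in E7 feather and 0 in E9sm against E7fm. No share of all probe sets is given beside the counts of these alternative fits.

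All other comparisons had 0 passing collagens with all arrays. Leaving out both arrays that stood apart gave 4 in E9se against E7fe, 1 in E9sm against E7fm, 5 in E11se against E9fe, 2 in E9fe against E7fe, 1 in E9fm against E7fm, 4 in E9se against E9fe, 2 in the change of separation from E7 to E9 feather and 1 in that between E7 feather and E9 scale. Over all probe sets the shares called were then 1.98%, 2.01%, 2.65%, 2.22%, 2.27%, 3.19%, 2.62% and 1.68% in the same order. Fitting only the groups compared gave 2 in E9se against E7fe, and the trended prior 1 in the change of separation from E7 to E9 feather (COL14A1). For these fits and those without single arrays no share of all probe sets is given. Whether their calls are particular to the collagens was not tested. Leaving out single arrays gave 0 to 4 in E11se against E9fe, 0 to 2 in E9fe against E7fe, 0 to 2 in E9se against E9fe and 0 to 2 in the change from E7 to E9 feather, the highest each time without E9fe replicate 1, and 0 elsewhere.

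Signs of values that did not pass with all arrays turned as follows. Without both arrays that stood apart, E11se against E9fe gave COL6A1 0.34, COL6A2 0.68, COL6A3 0.25 and COL12A1 0.76; E9fe against E7fe gave COL1A2 -0.27, COL3A1 -0.27, COL5A1 -0.42 and COL6A1 -0.0077; E9se against E9fe gave COL6A1 1.18 and COL6A2 1.37. The change of separation from E7 to E9 feather was then 0.13 for COL6A1 and 0.21 for COL6A2, that from E9 feather to E11 scale -0.025 for COL6A1, -0.11 for COL6A2 and -0.34 for COL12A1, and the change of the scale against feather difference of the epithelium with stage was 0.60 for COL5A1. With means over probe sets, the change of separation from E7 to E9 feather was 0.087 for COL5A1 and -0.034 for COL6A3.

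Leaving out single arrays gave, in E11se against E9fe, -1.98 to 0.34 for COL6A1, -1.61 to 0.68 for COL6A2, -0.63 to 0.25 for COL6A3 and -1.26 to 0.76 for COL12A1. In E9fe against E7fe it gave -0.27 to 0.37 for COL1A2, -0.27 to 0.65 for COL3A1, -0.42 to 0.59 for COL5A1 and -0.0077 to 2.31 for COL6A1. In E9se against E9fe it gave -1.21 to 1.18 for COL6A1 and -0.91 to 1.37 for COL6A2. In E9sm against E7fm it gave -0.30 to 0.70 for COL6A3, and in E9sm against E9fm -0.26 to 0.74 for COL6A3 and -0.27 to 0.43 for COL14A1. The change of separation from E7 to E9 feather was -0.39 to 0.31 for COL1A2, -0.91 to 0.11 for COL5A1, -2.12 to 0.20 for COL6A1 and -1.87 to 0.42 for COL6A2. That from E9 to E11 scale was -0.64 to 0.36 for COL6A3 and -0.25 to 0.45 for COL14A1, and that from E9 feather to E11 scale -0.088 to 2.23 for COL6A1, -0.32 to 1.97 for COL6A2 and -0.34 to 1.68 for COL12A1. The change of the scale against feather difference of the epithelium with stage was -0.41 to 0.60 for COL5A1. Signs that turned by less than the spread between replicates were not counted. The cause was not tested.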
